A study of Arabidopsis with 4 samples.

Results

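The CBF and ZAT genes described here are 6 rapidly inducible stress transcription factors of Arabidopsis, chosen by gene identifier from the 32833 genes of the deposited table. They are CBF1 (AT4G25490), CBF2 (AT4G25470), CBF3 (AT4G25480), ZAT6 (AT5G04340), ZAT10 (AT1G27730) and ZAT12 (AT5G59820), and all 6 are in the table. RNA sequencing was done on 4 libraries of whole seedlings, 2 from the wild type in the Col-0 ecotype and 2 from the mutant jmj28-2 in the same ecotype. All seedlings were 12 days old, grown at 23 °C on MS medium with 1% sucrose in days of 16 h light and 8 h dark, and the labels name no cold or other stress treatment. The mutant is named for JMJ28, a KDM3-type histone demethylase with a JmjC domain; the sources used here do not give where in the gene the mutation lies.

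CBF proteins (also called DREB1) are AP2/ERF-type activators that bind the C-repeat/dehydration-responsive element and switch on cold-protective genes such as COR15A and KIN1. CBF genes are induced within minutes of cooling, are under circadian control, and also respond to touch and calcium signals. ZAT6, ZAT10 and ZAT12 are C2H2 zinc-finger proteins with an EAR repression motif, and their transcripts rise rapidly after cold, high light, wounding, salt and reactive oxygen species. Both families are used as markers of a plant's early response to disturbance.

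Levels are given as TPM, transcript abundance per length scaled to a fixed total in each library, so they can be compared between genes. Col-0 and jmj28-2 libraries each held between 19606 and 19751 genes at 1 TPM or more. JMJ28 itself had 7.63 and 7.70 TPM in the wild type and 5.45 and 5.72 TPM in the mutant, lower in both mutant libraries but not past the test (limma adjusted p = 0.235). All 10 root markers and all 5 leaf markers were above 0 in every library. The summed level of the leaf markers was 55304 and 53965 TPM in the wild type and 49965 and 54839 TPM in the mutant. The root markers summed to 2107 and 2059 TPM in Col-0 and to 2218 and 1791 TPM in jmj28-2. Without the most abundant, PYK10, the sums were 140.3, 135.2, 141.0 and 88.6 TPM, so jmj28-2 replicate 2 had the lowest sum. The markers differed in this: CASP1 had 58.73, 55.7, 56.97 and 30.03 TPM in the same order. SCR fell less, at 18.29, 18.42, 19.78 and 17.49 TPM. WER, at 6.13, 4.51, 6.06 and 4.86 TPM, was not lowest in jmj28-2 replicate 2.

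The ZAT genes and CBF2 had higher means in jmj28-2, between 1.51 and 2.25 times the Col-0 mean, whereas CBF3 had means of 0.93 and 0.845 TPM and CBF1 was close to 0. Against the spread between libraries none of these differences passed. Of the 6 genes, 4 averaged 1 TPM or more and were tested; 0 of these 4 passed at an adjusted p under 0.05 (limma on log2(TPM + 1), Benjamini-Hochberg adjustment over 19764 genes), against 0.0759% of all genes tested, of which 0.0405% were higher and 0.0354% lower in jmj28-2. At an unadjusted p under 0.05, 2 of the 4 passed, ZAT6 and ZAT10, against 13.9% of all genes tested.

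ZAT10, also called STZ (chromosome 1), is a repressor linked to salt, drought and high-light responses and was the most abundant of the 6. It had 9.17 and 24.91 TPM in the Col-0 libraries and 32.76 and 43.87 TPM in the jmj28-2 libraries. Both mutant libraries lay above both wild-type libraries, and Col-0 replicate 1 stood well below the other three. The means were 17.0 ± 11.1 and 38.3 ± 7.86 TPM (SD, n = 2 libraries each), a ratio of 2.25. The log2 change was 1.26 (SE 0.443, limma adjusted p = 0.325), and 0.577% of all genes tested had as large an increase.

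ZAT12 (chromosome 5), a factor of high-light and oxidative stress responses, had 2.81 and 8.34 TPM in the wild type and 8.90 and 14.20 TPM in the mutant. The genotypes did not overlap, but Col-0 replicate 2 and jmj28-2 replicate 1 were nearly level. The means were 5.58 ± 3.91 and 11.6 ± 3.75 TPM (SD, n = 2 each), a ratio of 2.07. The log2 change was 1.04 (SE 0.454, limma adjusted p = 0.394).

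ZAT6 (chromosome 5), which has been linked to phosphate homeostasis and to cold and salt tolerance, had 8.54 and 13.69 TPM in the wild type and 15.03 and 18.61 TPM in the mutant. Again the genotypes did not overlap, with Col-0 replicate 1 lowest and jmj28-2 replicate 2 highest. The means were 11.1 ± 3.64 and 16.8 ± 2.53 TPM (SD, n = 2 each), a ratio of 1.51. The log2 change was 0.58 (SE 0.226, limma adjusted p = 0.355).

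CBF2, CBF3 and CBF1 lie next to each other on chromosome 4 as tandem copies. CBF2 had 0.95 and 2.40 TPM in the wild type and 2.90 and 4.11 TPM in the mutant. It had the same order of libraries as the ZAT genes, at a much lower level. The means were 1.68 ± 1.02 and 3.51 ± 0.856 TPM (SD, n = 2 each), a ratio of 2.09. The log2 change was 0.79 (SE 0.313, limma adjusted p = 0.362).

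CBF3 had 0.70 and 1.16 TPM in the wild type and 0.82 and 0.87 TPM in the mutant. Both mutant libraries fell between the wild-type ones. The gene lay under the filter, and without a filter its log2 change was -0.05 (SE 0.159, limma adjusted p = 0.909). CBF1 was listed at 0 in Col-0 replicate 1 and at 0.06 TPM in replicate 2, and it had 0.29 and 0.24 TPM in jmj28-2. It was above the wild type in both mutant libraries but low throughout, was also below the filter and, tested without a filter, failed to pass (log2 change 0.30, SE 0.1, limma adjusted p = 0.371). No fold change is given for CBF1 because a wild-type library is listed at 0.

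RSEM divides reads that match several copies by estimation, and how many reads the CBF genes share was not measured here, so their sum is given too. The sum of the 3 CBF genes was 1.65 and 3.62 TPM in the wild type and 4.01 and 5.22 TPM in the mutant, a ratio of means of 1.75. CBF2 made up between 57.6% and 78.7% of the sum in each library. The nearest genes on either side of the CBF cluster in RefSeq order were nearly level across libraries. ABCB28, a transporter gene, had 28.9 and 29.9 TPM in the wild type and 29.2 and 28.6 TPM in the mutant. RS40, a splicing factor gene, had 50.3 and 53.6 TPM in the wild type and 52.4 and 52.4 TPM in the mutant. Of the noncoding genes listed between the CBF genes, AT4G07385 had 0.16 TPM in jmj28-2 replicate 1 and was listed at 0 in the other three libraries, and AT4G07395 was listed at 0 in all 4.

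In every library the order of the levels was the same, with ZAT10 highest, then ZAT6, ZAT12, CBF2, CBF3 and CBF1. Neighbours in that order were not always separated by more than the spread: in Col-0 replicate 1, ZAT10 exceeded ZAT6 only by 9.17 to 8.54 TPM, and CBF2 exceeded CBF3 by 0.95 to 0.70 TPM. In the mutant libraries the gaps were wider, with ZAT10 at 32.76 and 43.87 TPM beside ZAT6 at 15.03 and 18.61 TPM.

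**Figure D1:**
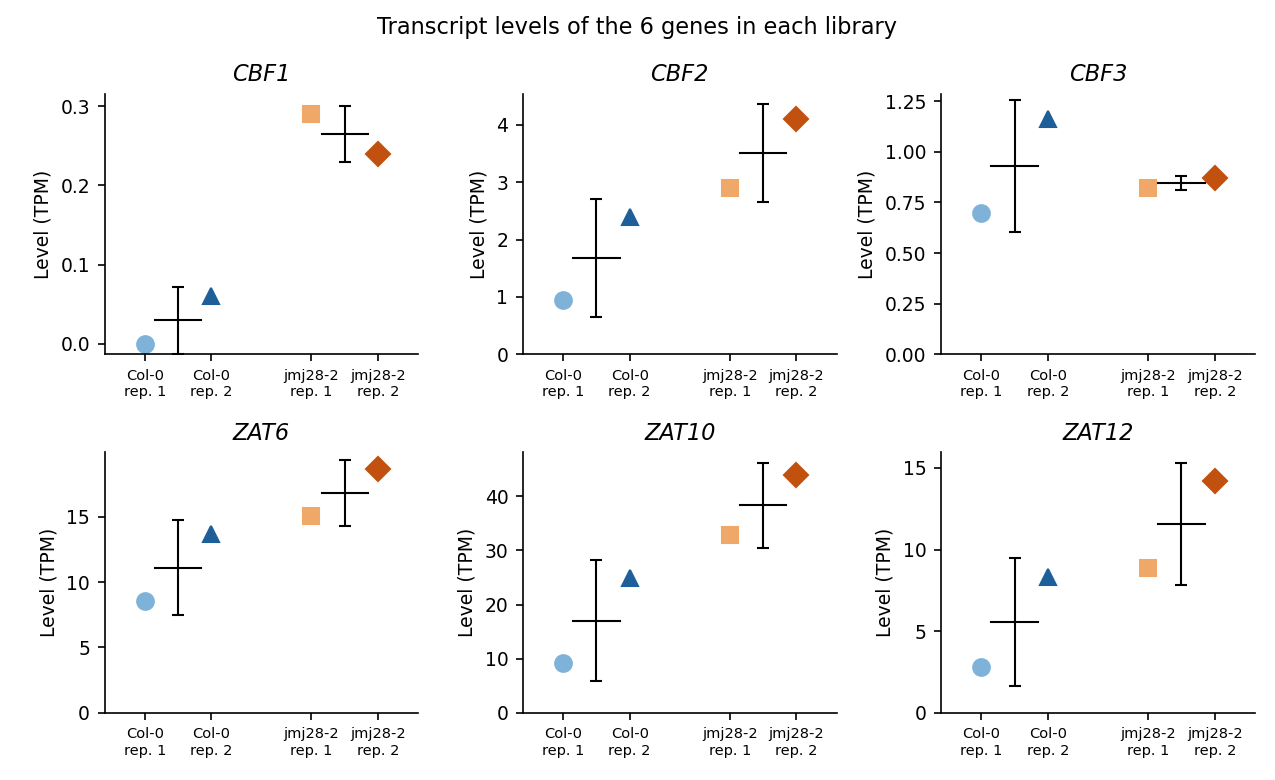
Levels of the 6 genes in TPM (y axes, a scale for each gene) in each library (x axes). Symbols are single libraries, horizontal lines are genotype means and error bars are SD (n = 2); ZAT10 runs from 9.17 TPM in Col-0 replicate 1 to 43.87 TPM in jmj28-2 replicate 2, and the jmj28-2 libraries of CBF3 fall between the Col-0 ones.

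In CBF2 and the ZAT genes the wild-type libraries differed from each other by more than the mutant mean differed from the higher of them. ZAT10 was 2.72 times as high in Col-0 replicate 2 as in replicate 1, whereas the jmj28-2 mean was 1.54 times Col-0 replicate 2. For ZAT12 the corresponding ratios were 2.97 and 1.39, for CBF2 2.53 and 1.46, and for ZAT6 1.60 and 1.23. On the log2 scale this held for each of the 4 genes tested, and for 44.6% of all genes tested. As large a difference between the Col-0 libraries as that of ZAT10 was seen in 0.966% of all genes tested, and as large as that of ZAT6 in 2.87%.

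The position of Col-0 replicate 1 as lowest and jmj28-2 replicate 2 as highest was shared by ZAT6, ZAT10, ZAT12 and CBF2, and occurred in 8.14% of all genes tested; this order was chosen after the values were seen. All 4 of these genes had both jmj28-2 libraries above both Col-0 libraries, and 29.0% of all genes tested did. CBF1 did too, but it lay near 0 and under the filter, outside the genes tested. Leaving out Col-0 replicate 1 lowered the log2 change of ZAT10 to 0.59, of ZAT12 to 0.39, of CBF2 to 0.39 and of ZAT6 to 0.27. Leaving out Col-0 replicate 2 raised them to 1.94, 1.69, 1.19 and 0.89. Leaving out jmj28-2 replicate 1 gave 1.47, 1.35, 0.99 and 0.73, and leaving out replicate 2 gave 1.06, 0.73, 0.60 and 0.44. The sign stayed positive for these 4 genes in each case and none was called (limma adjusted p between 0.199 and 0.734 over all alternatives). The ratio of the summed CBF level also rested on Col-0 replicate 1, with a log2 ratio of 0.81 over all libraries and 0.35 without that library.

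**Figure D2:**
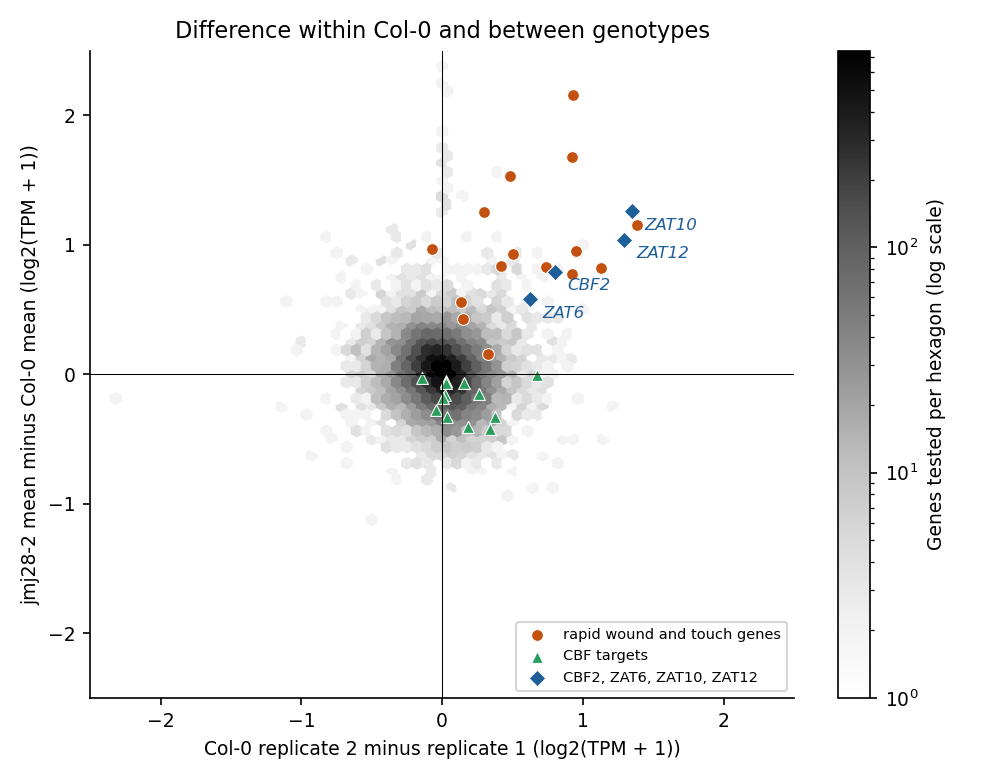
Difference between the Col-0 libraries (x axis) against the difference between genotype means (y axis), both in log2(TPM + 1), for all genes tested (grey hexagons, log colour scale; 115 genes beyond the axes are not drawn). CBF2 and the ZAT genes (diamonds) sit at 0.62 to 1.35 on the x axis and 0.58 to 1.26 on the y axis, among the rapid wound and touch genes (circles) and apart from the CBF targets (triangles).

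Genes whose profile over the 4 libraries was most like that of each tested gene were taken by the smallest root mean square difference of centred log2(TPM + 1) values. For ZAT10 these were ERF105, an ethylene-response-type factor (difference 0.0546), AT1G07135 (0.0833) and AT1G72910 (0.107), which the table describes as similar to part of a disease resistance protein. ERF105 had 6.79 and 19.32 TPM in the wild type and 23.09 and 31.69 TPM in the mutant, the same order of libraries as ZAT10. ERF105 was also nearest to ZAT12 (0.0917), followed by WRKY70, a regulator of salicylic acid defence (0.123), and ZAT10 itself (0.134).

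For CBF2 the nearest were DVL10, of a family of small peptides (0.0269), ERF13 (0.0486) and the calmodulin-like touch gene TCH2, also called CML24 (0.0659). TCH2 had 36.62 and 61.65 TPM in the wild type and 78.68 and 91.91 TPM in the mutant. For ZAT6 they were SAG13, a senescence-associated gene (0.0106), AT1G72940 (0.0373) and AT4G33960 (0.0505). SAG13 had 2.58 and 4.45 TPM in the wild type and 4.90 and 6.24 TPM in the mutant. These likenesses describe 4 libraries and carry no test.

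Other rapid stress genes were listed by known role, but the lists were chosen with earlier results of these data known. The counts describe the lists and carry no set test. ERF105, ERF13 and TCH2, given above as nearest profiles, are among the rapid wound and touch genes. Among 17 rapid wound and touch genes, 15 were tested, and all 15 had a higher mean in jmj28-2 (57.3% of all genes tested), with a median log2 change of 0.93 against 0.03 over all genes tested. In 14 of the 15 both mutant libraries lay above both wild-type libraries, against 29.0% of all genes tested, and in 13 Col-0 replicate 1 was lowest and jmj28-2 replicate 2 highest, against 8.14%. With limma, 0 passed over all genes, against 0.0759% of all genes tested, and 10 had an unadjusted p under 0.05, against 13.9%. Without Col-0 replicate 1 the median was 0.49 and 14 or more of the 15 stayed higher when any library was left out.

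WRKY40, a factor of defence and abscisic acid responses, had 2.88 and 6.41 TPM in the wild type and 19.44 and 26.89 TPM in the mutant. Its lowest mutant library was 3.03 times its highest wild-type library, a wider separation than the 1.32 times of ZAT10 (log2 change 2.15, SE 0.332, limma adjusted p = 0.178). WRKY33, a factor of defence against necrotrophic fungi, had 20.62 and 29.22 TPM in the wild type and 63.51 and 83.84 TPM in the mutant (log2 change 1.53, limma adjusted p = 0.142). WRKY18, a partner of WRKY40, had 6.86 and 6.46 TPM in the wild type and 14.04 and 13.90 TPM in the mutant. Unlike the ZAT genes, its wild-type libraries were close together (log2 change 0.97, SE 0.0852, limma adjusted p = 0.0735). WRKY18 passed only under robust fitting (limma adjusted p = 0.0289), which called 43 genes in all, against 15 in the fit reported. TCH3, a calmodulin-like protein gene induced by touch, had 68.33 and 84.34 TPM in the wild type and 151.06 and 220.23 TPM in the mutant (log2 change 1.25, limma adjusted p = 0.18). WRKY40, WRKY33 and TCH3 passed only with a replicate block (limma adjusted p = 0.0476, 0.0221 and 0.0421). Whether replicate numbers pair the libraries is not in the labels.

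Among 11 transcription factors induced early in cold alongside the CBF genes, 8 had a higher and 3 a lower mean in jmj28-2. Among all genes tested 57.3% were higher. The median log2 change of the 11 was 0.67. Both mutant libraries lay above both wild-type libraries in 7 and below them in 2, against 29.0% above and 17.6% below among all genes tested. MYB44, a factor of abscisic acid and stress responses, had 34.12 and 35.06 TPM in the wild type and 54.86 and 56.53 TPM in the mutant. Its libraries agreed closely within genotypes, with a log2 change of 0.67 (SE 0.06, limma adjusted p = 0.0736). MYB44 passed only under robust fitting (limma adjusted p = 0.0283), which called 43 genes in all, against 15 in the fit reported. RAV1, a growth-repressing factor with AP2 and B3 domains, had 44.54 and 53.45 TPM in the wild type and 80.56 and 92.06 TPM in the mutant (adjusted p = 0.143). CZF1, a CCCH zinc-finger gene also called SZF2, had 17.40 and 23.82 TPM in the wild type and 38.61 and 41.50 TPM in the mutant (adjusted p = 0.18). MYB73, a close relative of MYB44, had 12.75 and 21.64 TPM in the wild type and 32.73 and 31.84 TPM in the mutant (adjusted p = 0.243). HSFC1, looked up after its values were seen, was lower in both mutant libraries. It had 10.58 and 9.19 TPM in the wild type and 6.76 and 7.5 TPM in the mutant (log2 change -0.42, limma adjusted p = 0.253). A total of 0 passed over all genes with limma, against 0.0759% of all genes tested. HSFC1 was among the 7 with an unadjusted p under 0.05, against 13.9% of all genes tested.

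**Figure D3:**
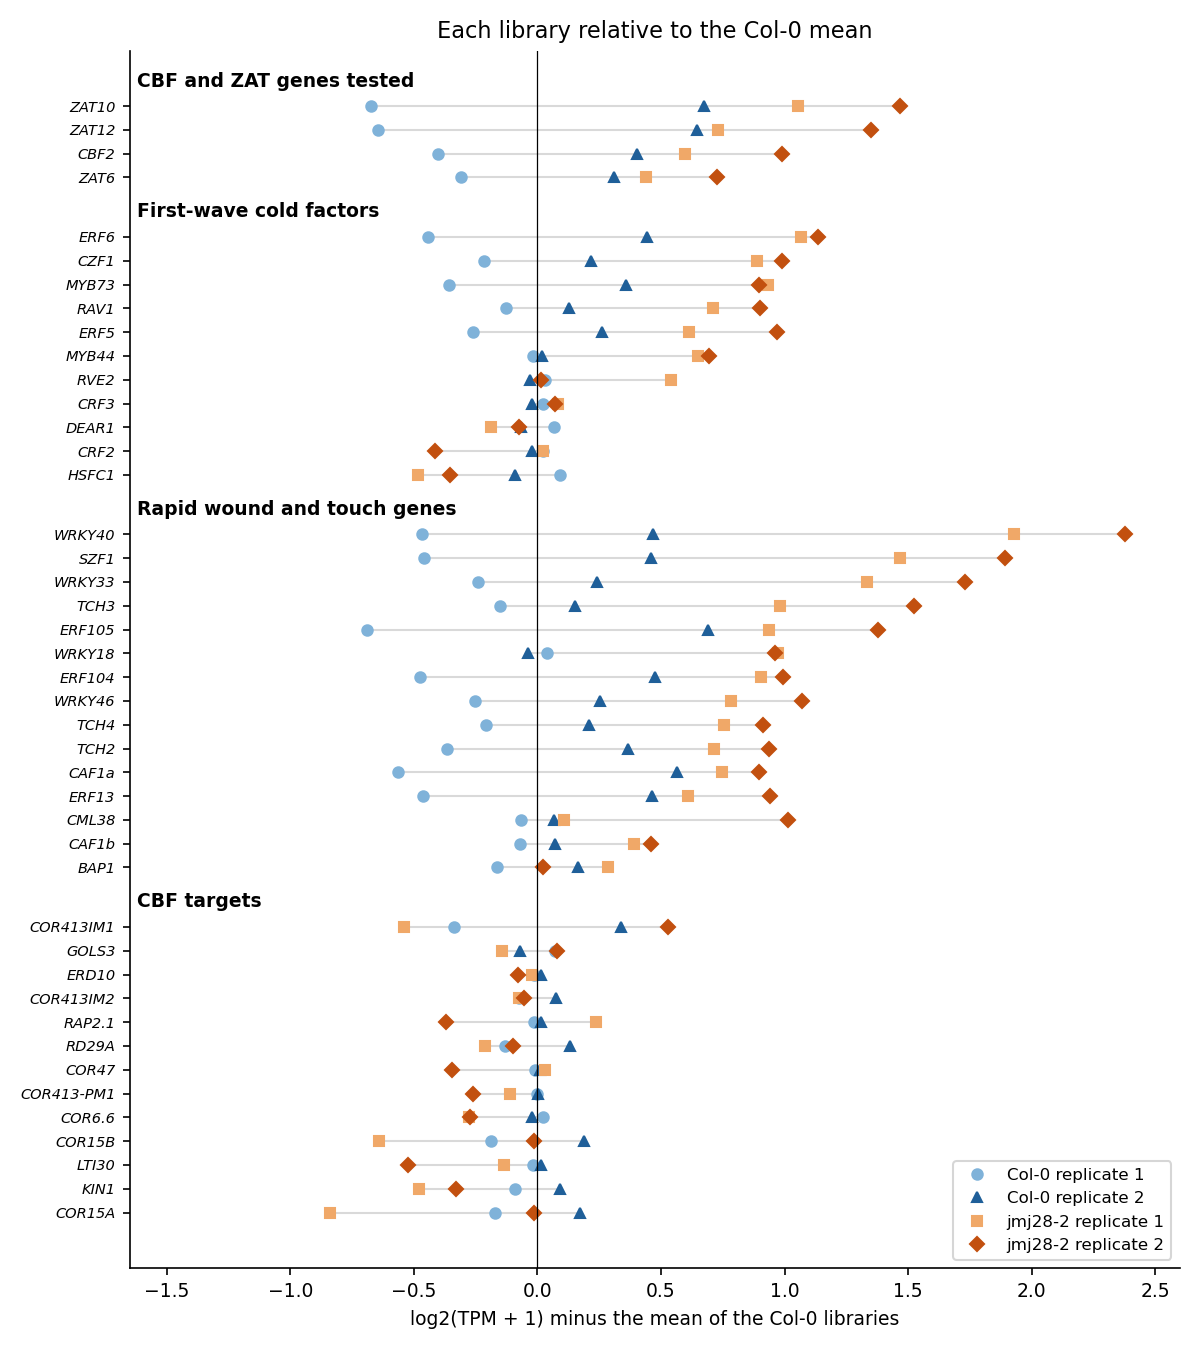
log2(TPM + 1) of each library minus the mean of the Col-0 libraries (x axis) for the tested CBF and ZAT genes, the first-wave cold factors, the rapid wound and touch genes and the CBF targets (y axis). Each symbol is a library; in WRKY40 the Col-0 libraries lie far left of both jmj28-2 libraries, whereas in ZAT12 Col-0 replicate 2 nearly touches jmj28-2 replicate 1.

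Relatives of the ZAT genes within the C2H2 zinc-finger family were listed separately, and 7 of 8 were tested. Of these 6 were higher and 1 lower by mean, beside 57.3% higher among all genes tested. ZAT7, linked to salt tolerance, had 3.33 and 4.61 TPM in the wild type and 9.51 and 9.36 TPM in the mutant (log2 change 1.08, SE 0.151, limma adjusted p = 0.143). Its neighbouring copy ZAT8 had 0.95 and 1.27 TPM in the wild type and 2.51 and 2.12 TPM in the mutant (adjusted p = 0.271), and reads of near copies such as these can be shared. AZF2, a repressor of abscisic acid responses, had 3.99 and 4.06 TPM in the wild type and 5.07 and 6.16 TPM in the mutant. AZF3, of the same subgroup, had 8.83 and 5.78 TPM in the wild type and 11.24 and 9.05 TPM in the mutant, so here Col-0 replicate 1 was above replicate 2. The relatives' median log2 change was 0.39, falling to 0.17 without Col-0 replicate 2 and to 0.25 without a filter. With limma 0 passed, against 0.0759% of all genes tested, and 3 had an unadjusted p under 0.05, against 13.9%. In 4 of 7 both mutant libraries lay above both wild-type libraries, against 29.0%. The order of libraries seen in ZAT10 was shared by 1 of 7, against 8.14% of all genes tested.

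Of 5 relatives of the CBF genes listed, only 1, DREB2A, reached the filter and was tested. CBF4, DDF1 and DDF2 were listed at 0 in all 4 libraries. DREB2A, a heat and drought factor, had 3.76 and 3.99 TPM in the wild type and 3.81 and 2.46 TPM in the mutant, with a lower mean and overlapping genotypes (limma adjusted p = 0.604). DREB2B, its close relative, was below the filter, at 0.41 and 0.90 TPM in the wild type and 0.82 and 0.56 TPM in the mutant, and was looked up after its values were seen.

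Known targets of the CBF proteins had lower means on the log2 scale. All 13 targets listed had a lower log2 mean in jmj28-2, whereas 57.3% of all genes tested had a higher one. The log2 changes ran from -0.426 to -0.005, with a median of -0.16. In 5 both mutant libraries lay below both wild-type libraries, against 17.6% of all genes tested. The differences were small and 0 passed with limma, against 0.0759% of all genes tested. An unadjusted p under 0.05 was found in 3, against 13.9% of all genes tested. COR6.6, a small cold-induced protein gene, had 140.7 and 136.1 TPM in the wild type and 114.0 and 114.3 TPM in the mutant (log2 change -0.28, SE 0.053, limma adjusted p = 0.21). Its tandem copy KIN1 had 65.5 and 74.5 TPM in the wild type and 49.8 and 55.4 TPM in the mutant (adjusted p = 0.229). COR413-PM1, a membrane protein gene, had 388.7 and 390.0 TPM in the wild type and 360.8 and 325.0 TPM in the mutant, and the dehydrin gene LTI30 had 68.2 and 69.8 TPM in the wild type and 62.8 and 47.6 TPM in the mutant. When a library was left out, 1 or 2 of the 13 had a higher mean, and the median was -0.25 without Col-0 replicate 1 and -0.10 without jmj28-2 replicate 1. The exception by untransformed means was COR413IM1, named after its values were seen, with 17.22 and 28.12 TPM in the wild type and 14.84 and 32.26 TPM in the mutant.

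Regulators of the CBF genes were nearly level by their median, with 10 of 16 tested higher, beside 57.3% of all genes tested. Their median log2 change was 0.02, which turned negative under both rescalings (-0.01 and -0.003). Single regulators went both ways, with log2 changes from -0.627 to 0.545. Both mutant libraries lay above both wild-type libraries in 4 and below them in 3, against 29.0% and 17.6% of all genes tested. With limma 0 passed, against 0.0759%, and 4 had an unadjusted p under 0.05, against 13.9%. ICE1, the bHLH activator of CBF3, and CAMTA3, a calmodulin-binding activator of CBF2, were looked up after their values were seen. ICE1 had 32.65 and 32.64 TPM in the wild type and 33.71 and 32.87 TPM in the mutant, and CAMTA3 had 20.10 and 21.37 TPM in the wild type and 21.11 and 21.02 TPM in the mutant. The genotypes overlapped in CAMTA3, and in ICE1 the mutant libraries lay just above the wild type. MPK3, a stress-activated kinase, had 42.1 and 46.3 TPM in the wild type and 58.2 and 72.3 TPM in the mutant (limma adjusted p = 0.224). SOC1, a floral integrator that represses CBF genes, had 30.2 and 34.1 TPM in the wild type and 22.3 and 18.7 TPM in the mutant (adjusted p = 0.195). PIF7, a phytochrome-interacting repressor of CBF genes, had 29.2 and 28.4 TPM in the wild type and 23.5 and 22.8 TPM in the mutant (adjusted p = 0.224). PIF3, another repressor of CBF genes, had 9.72 and 10.6 TPM in the wild type and 12.7 and 11.9 TPM in the mutant (adjusted p = 0.319).

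Clock genes acting on the CBF promoters split in direction. The activators CCA1 and LHY had lower means in jmj28-2. CCA1 had 54.5 and 60.0 TPM in the wild type and 47.4 and 37.8 TPM in the mutant, and LHY had 13.1 and 15.1 TPM in the wild type and 12.7 and 8.67 TPM in the mutant (limma adjusted p = 0.266 and 0.431). Of the repressing pseudo-response regulators, PRR5 had 15.9 and 15.5 TPM in the wild type and 22.9 and 22.8 TPM in the mutant, and PRR9 had 34.8 and 34.8 TPM in the wild type and 27.5 and 27.0 TPM in the mutant (adjusted p = 0.142 and 0.197). Over the 6 clock genes 2 were higher and 4 lower, beside 57.3% higher among all genes tested. With limma 0 passed, against 0.0759% of all genes tested. An unadjusted limma p under 0.05 was found in 3 of the 6, against 13.9%. Both mutant libraries lay above both wild-type libraries in 2 and below them in 3, against 29.0% and 17.6% of all genes tested. The order of libraries seen in ZAT10 was shared by 0 of the 6, against 8.14%. The sources used here do not give the time of day at harvest, and the part of the clock in the CBF levels was not tested.

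Reactive oxygen genes, listed by role, had 4 of 7 tested members higher and 3 lower, beside 57.3% higher among all genes tested. Their median log2 change, 0.15 with every library, ran from 0.026 to 0.283 when a library was left out, lowest without Col-0 replicate 2, and was 0.046 without a filter. OM66, a mitochondrial stress marker, had 2.35 and 2.51 TPM in the wild type and 3.89 and 4.73 TPM in the mutant, and AT2G21640, described in the table as an oxidative stress marker, had 4.72 and 4.73 TPM in the wild type and 7.95 and 6.70 TPM in the mutant. RBOHD, the NADPH oxidase of stress signalling, had 25.3 and 25.0 TPM in the wild type and 29.9 and 33.1 TPM in the mutant. None of these passed with limma (adjusted p = 0.232, 0.227 and 0.235). Of the 7, 0 passed, against 0.0759% of all genes tested, and 3 had an unadjusted limma p under 0.05, against 13.9%. APX1, the cytosolic ascorbate peroxidase whose induction needs ZAT12, had 674.5 and 564.1 TPM in the wild type and 647.1 and 728.9 TPM in the mutant, with overlapping genotypes.

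**Figure D4:**
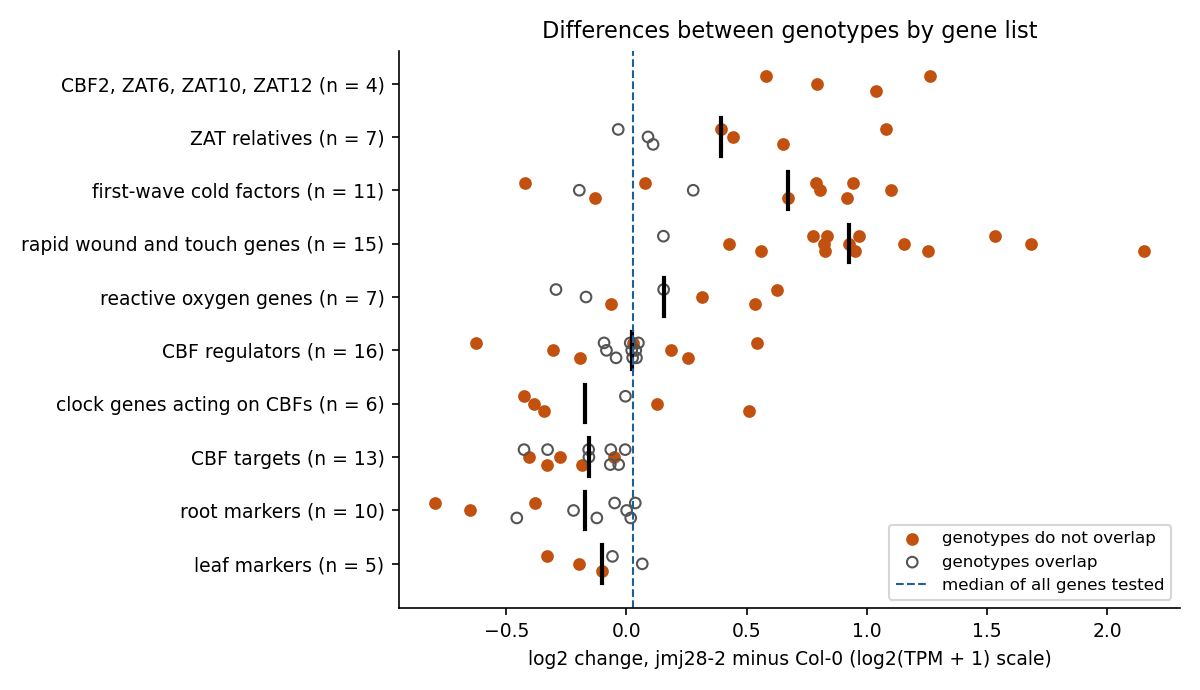
log2 change of jmj28-2 minus Col-0 on the log2(TPM + 1) scale (x axis) for each tested gene (symbols) by list (y axis). Black bars are list medians, filled symbols are genes whose genotypes do not overlap, and the dashed line is the median of all genes tested at 0.03; the rapid wound and touch genes have a median of 0.93 and the CBF targets one of -0.16.

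Library composition was set beside these values. Relative to the Col-0 mean, the median of the root markers was 0.01 and -0.01 in Col-0 replicates 1 and 2, and 0.05 and -0.53 in jmj28-2 replicates 1 and 2. Over the rapid wound and touch genes the medians in the same order were -0.25, 0.25, 0.78 and 1.00. For the leaf markers they were 0.002, -0.002, -0.17 and -0.04. The part of root or leaf content in the levels of the CBF and ZAT genes was not tested. In whole seedlings, fewer cells of a type and less RNA per cell cannot be told apart.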

How the data were processed

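RNA of 12-day-old seedlings was sequenced in 4 libraries, 2 per genotype; groups and replicate numbers come from the sample titles, and 0 sample columns were left unmatched. The authors used build TAIR10 with TopHat, RSEM and edgeR, per the submitters' processing notes; versions, filters, annotation and strand setting are not given in the sources used. The deposited table is labelled FPKM, but its columns have nearly the same total (998943 to 999014), so the values were treated as TPM, rounded by the authors to 2 decimals. TPM keep no depth, so depth is unknown and no counting interval is given; an exact 0 can be a failed estimate. TPM share a fixed total, so abundant transcripts affect all others.

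Genes with a mean of at least 1 TPM (19764 of 32833) were fitted in limma 3.58.1 (R 4.3.3) on log2(TPM + 1), which understates changes of low genes, with genotype as the only term, an intensity trend (2 residual, 3.18 prior degrees of freedom), two-sided tests and Benjamini-Hochberg adjustment over all genes tested. The design had allowed for FPKM or TPM with the same test. A permutation of 2 against 2 libraries cannot give p under 0.333. Whether libraries came from separately grown seedlings is not in the labels, so p-values measure only the spread between these samples, possibly technical. The procedure was tested on simulated data.

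The 6 genes and the 8 lists (85 genes) were chosen with earlier results of these data known. Named genes are the 6, up to 4 of each list with the smallest p, the 3 nearest profiles of each tested gene, JMJ28 and the neighbours of the CBF cluster; others are said to be chosen after their values were seen. Names come from the table, where JMJ28 is B160, or from RefSeq TAIR10.1, used for names, chromosomes and gene order. Alternatives were another pseudocount (0.1), filters (none, 5 TPM), no trend, robust fitting, quantile normalization, trimmed-mean (TMM) scaling, a replicate block and leaving out each library. Figures were drawn with matplotlib 3.10.9.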

Additional observations from a re-analysis of the deposited data

How the results depend on the processing

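All alternatives were planned except the counts of list members with a library left out, chosen after seeing the data. CBF2, ZAT6, ZAT10 and ZAT12 were called under none of the alternatives in which they were tested (CBF2 fell under the filter at 5 TPM), CBF1 and CBF3 were tested only without a filter and not called there, and the sign of the former 4 did not change. CBF3 ran from -0.23 to 0.12 with a library left out, turning positive (0.12) without Col-0 replicate 2, and CBF1 moved to 1.52 with a pseudocount of 0.1, both under the filter. With a library left out, log2 changes ran from 0.26 to 0.34 for CBF1, 0.39 to 1.19 for CBF2, 0.27 to 0.89 for ZAT6, 0.59 to 1.94 for ZAT10, 0.39 to 1.69 for ZAT12 and 0.35 to 1.48 for the summed CBF ratio. The labels do not say whether same-numbered libraries were paired. Their deviations from the genotype means had r = 0.0162 over 19764 genes. This r over all genes cannot exclude a pairing that acts on few genes. In CBF2, ZAT6, ZAT10 and ZAT12 replicate 2 was above replicate 1 in both genotypes. With a replicate block ZAT10 kept a log2 change of 1.26 (SE 0.23 against 0.443, limma adjusted p = 0.199). The calls over all genes were then 12 higher and 6 lower.

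Over all genes, 8 higher and 7 lower as reported, the calls were 4 higher without a filter, 3 higher without the trend, 29 higher and 14 lower with robust fitting, and 4 lower at 5 TPM; with a library left out they ran from 0 to 10 higher and 0 to 7 lower. The 0 came without Col-0 replicate 2 (limma, 1243 genes at an unadjusted p under 0.05).

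List medians moved as follows. ZAT relatives had 0.46 with the smaller pseudocount, 0.25 without a filter, 0.44 at 5 TPM, 0.37 under quantile normalization and 0.37 with TMM factors (0.372 and 0.369). CBF regulators turned to -0.01 (-0.013) and -0.003 under those rescalings, CBF targets had -0.21 under quantile normalization, and reactive oxygen genes 0.05 without a filter (0.046). With a library left out the medians ran from 0.17 to 0.38 for ZAT relatives, 0.002 to 0.042 for CBF regulators, -0.195 to -0.053 for clock genes, -0.25 to -0.10 for CBF targets, 0.53 to 0.69 for first-wave factors, 0.49 to 1.24 for wound and touch genes and 0.026 to 0.283 for reactive oxygen genes. Higher CBF targets numbered 1 to 2 then, against 0. The causes were not tested. Named genes that passed only under an alternative, beside MYB44 and WRKY18, were WRKY33, WRKY40 and TCH3 with the replicate block (limma adjusted p = 0.0221, 0.0476 and 0.0421).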
